A study of Bos taurus and Ovis aries and Capra hircus with 27 samples.

Results

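Cadherins and protocadherins of the goat were taken as the gene models whose predicted protein holds at least 2 separate matches of the cadherin signature, a short pattern of aliphatic residues, aspartate, asparagine and proline at the calcium-binding edge of a cadherin repeat. Models with a copy suffix in their identifier were left out. Of the 22131 goat models in the expression table, 18216 had a protein sequence, and 55 models met the rule. The 9 goat libraries were messenger RNA of heart, liver and kidney, 3 libraries per tissue, from indigenous goats of about 3 years, and they belong to a series of 27 libraries that also covers cattle and sheep. The labels name no treatment. The study's methods describe 3 unrelated adult females per population, with several tissues taken from each, so libraries of different tissues are not from separate animals. The comparison asked how the expression of these models differed between the 3 tissues.

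Cadherins are membrane proteins that hold neighbouring cells together through calcium-dependent contacts between the repeats they carry outside the cell. Classical and desmosomal cadherins bind catenins and plaque proteins inside the cell, which tie the contact to actin or to intermediate filaments, as at the intercalated discs of heart muscle and between the epithelial cells of liver and kidney. Protocadherins usually carry more repeats, many of them are encoded side by side in clusters in which a large uninterrupted exon encodes the extracellular part, and the giant cadherins of the FAT, Dachsous and CELSR kinds act in planar cell polarity and tissue growth. The files paired no goat identifier with a gene name, so none of the 55 models was assigned to these families, and models are given by identifier, number of signatures and protein length. Catenins, plaque proteins and tissue markers could not be picked out for the same reason, and the tissue labels were not checked against markers.

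Values were FPKM, a fragment number scaled both to the length of the transcript and to the library, and differences between tissues are on the scale of log2(FPKM + 1), which understates the change of low models. Replicates of a tissue correlated across all tested models at Pearson's r of 0.918 to 0.985 and libraries of different tissues at 0.551 to 0.667, with models not being independent replicates. Summed FPKM was 574638 to 828807 per library, and the 10 highest models took 25.8% to 27.8% of it in heart, 11.7% to 19.1% in liver and 11.4% to 18.8% in kidney. The table held no counts, so the depth of the libraries was unknown. Positions are those of the deposited goat protein sequences, which name no genome build. RNA came from tissue, so fewer cells of a type and less RNA per cell cannot be told apart in any of the values.

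The 55 models fell into 3 groups by their predicted protein. A first group of 30 models had 2 or 3 signatures and 447 to 1423 residues, a second group of 16 models had 4 to 6 signatures and 579 to 1313 residues, and 9 giant models had 7 to 27 signatures and 2841 to 4955 residues. Highest values differed widely between the groups, at 251 FPKM among models with 2 or 3 signatures, 12.7 FPKM among those with 4 to 6, and 3.20 FPKM among the giant models. The mean was highest in kidney for 17, 8 and 8 models of the 3 groups, in heart for 6, 3 and 1, and in liver for 5, 3 and 0, while 2, 2 and 0 models were listed at 0 in all 9 libraries.

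**Figure D1:**
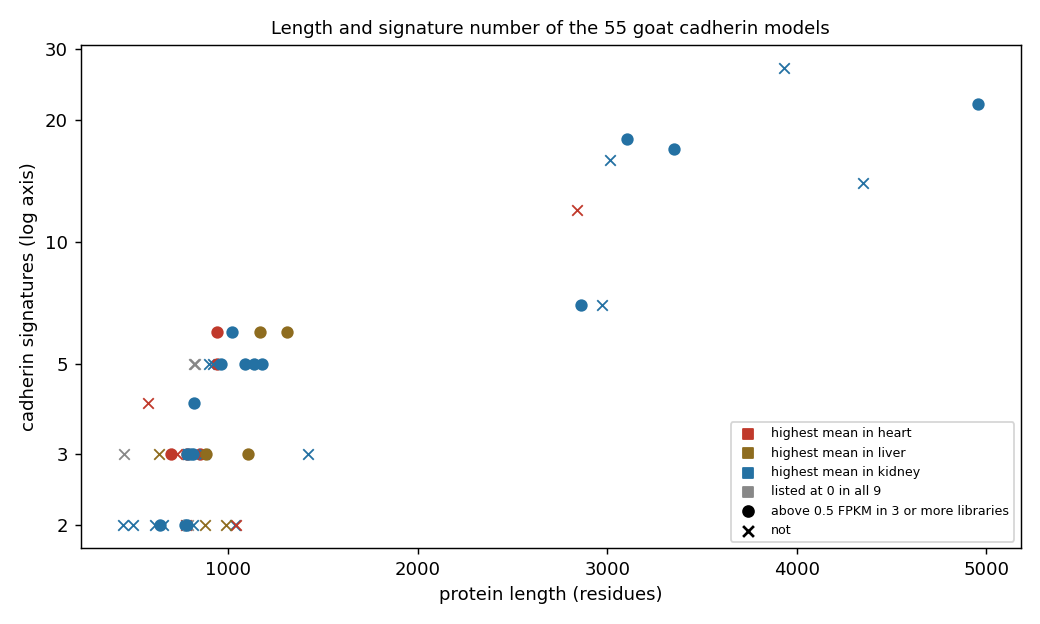
Protein length in residues (x axis) against the number of cadherin signatures (y axis, log axis) of the 55 goat models, coloured by the tissue of the highest mean, with dots for models above 0.5 FPKM in at least 3 libraries and crosses for the others. The 9 giant models stand apart at 2841 residues and more, and 8 of them had their highest mean in kidney, some of them on values near 0.

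A hydrophobic stretch long enough to cross a membrane was found in 52 of the 55 proteins. None was found in GOAT_ENSBTAP00000051651, the highest model of heart, or in GOAT_ENSP00000353656 and goat_GLEAN_10007869. Epidermal growth factor repeats, searched for by their cysteine spacing, were found in 5 proteins, all of them giant. The tripeptide histidine, alanine, valine, which classical type I cadherins carry in their outermost repeat, lay within 40 residues before the first signature in 4 proteins, GOAT_ENSBTAP00000028238, GOAT_ENSBTAP00000048482, GOAT_ENSBTAP00000042970 and GOAT_ENSP00000353656. Over their whole length, 4.56% of all goat proteins held it, which is an unlike measure and gives no background for that window. The closest other model shared 28.0% to 73.3% of aligned residues with a member, so that no pair of proteins was near identical. The rule excluded 3 models with a single signature, whose highest value was 0.164 FPKM, while the 14 members with 2 signatures reached 6.09 FPKM.

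Heart held the largest summed level of cadherin transcripts and kidney the largest number of models above 0.5 FPKM. The 55 models summed to 347 ± 17.6 FPKM in heart, 138 ± 15.6 in liver and 77.4 ± 11.9 in kidney (SD, n = 3), or 0.0425%, 0.0233% and 0.0124% of the summed FPKM. The number of models above 0.5 FPKM ran the other way for kidney, with 20 to 25 of 55 in the kidney libraries, 16 to 19 in heart and 11 to 15 in liver. Kidney also had the largest share of all goat models above that level, at 57.0% to 58.4% against 52.8% to 53.6% in heart and 52.7% to 53.0% in liver. A pair of models, GOAT_ENSBTAP00000051651 and GOAT_ENSBTAP00000028238, held the lead of heart in the sums. Without them, the sums were 44.0 ± 2.53 FPKM in heart, 108 ± 11.8 in liver and 70.7 ± 9.06 in kidney, so liver still exceeded kidney. The pair was picked as the highest models of heart in these same values, and the highest models of liver or kidney were not removed in turn. The highest model alone took 62.2% to 69.8% of the summed level in the heart libraries, 29.0% to 37.2% in liver and 10.8% to 16.2% in kidney, and the 3 highest took 90.8% to 92.1%, 63.0% to 69.9% and 30.9% to 43.5%. No test was made on sums over members chosen with earlier results known.

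**Figure D2:**
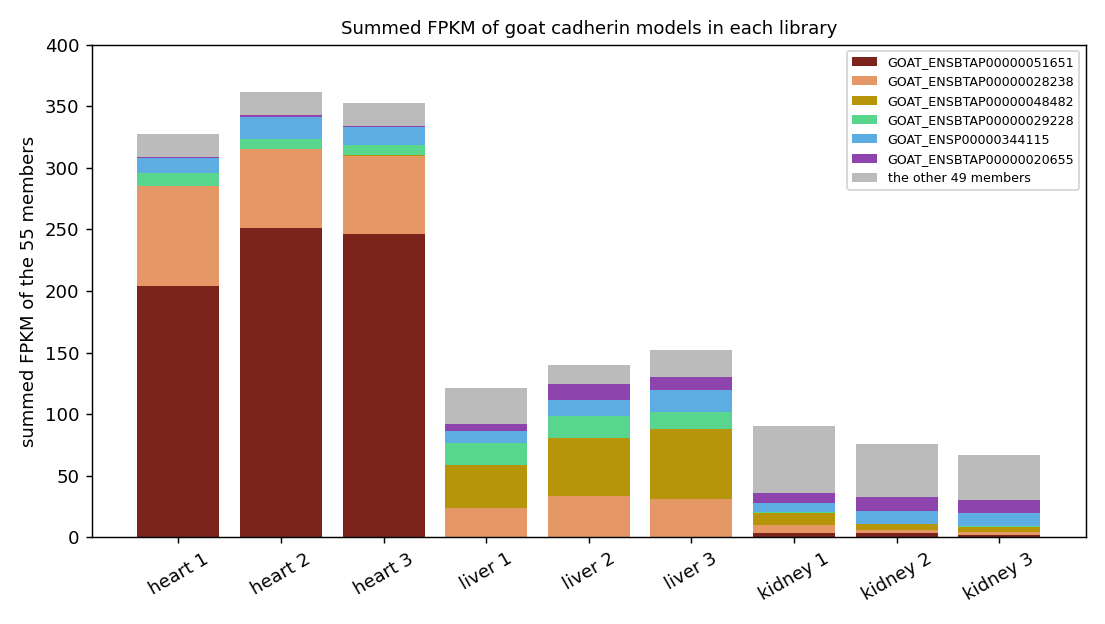
Summed FPKM of the 55 cadherin models (y axis, from 0) in each of the 9 libraries (x axis), with each bar divided into 6 models of high level and the other 49 members. GOAT_ENSBTAP00000051651 and GOAT_ENSBTAP00000028238 fill most of the heart bars, GOAT_ENSBTAP00000048482 is the largest part in liver, and the kidney bars hold no dominant part.

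A total of 25 models (45.5%) exceeded 0.5 FPKM in at least 3 of the 9 libraries and were tested, compared with 61.6% of all goat models. Of these 25, 7 exceeded 0.5 FPKM in all 9 libraries, and the mean was highest in kidney for 16, in heart for 5 and in liver for 4, beside 56.6%, 26% and 17.4% of all tested models. A model that passed through 1 tissue alone had to be high there, so these counts describe the tested models and not the 55.

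**Figure D3:**
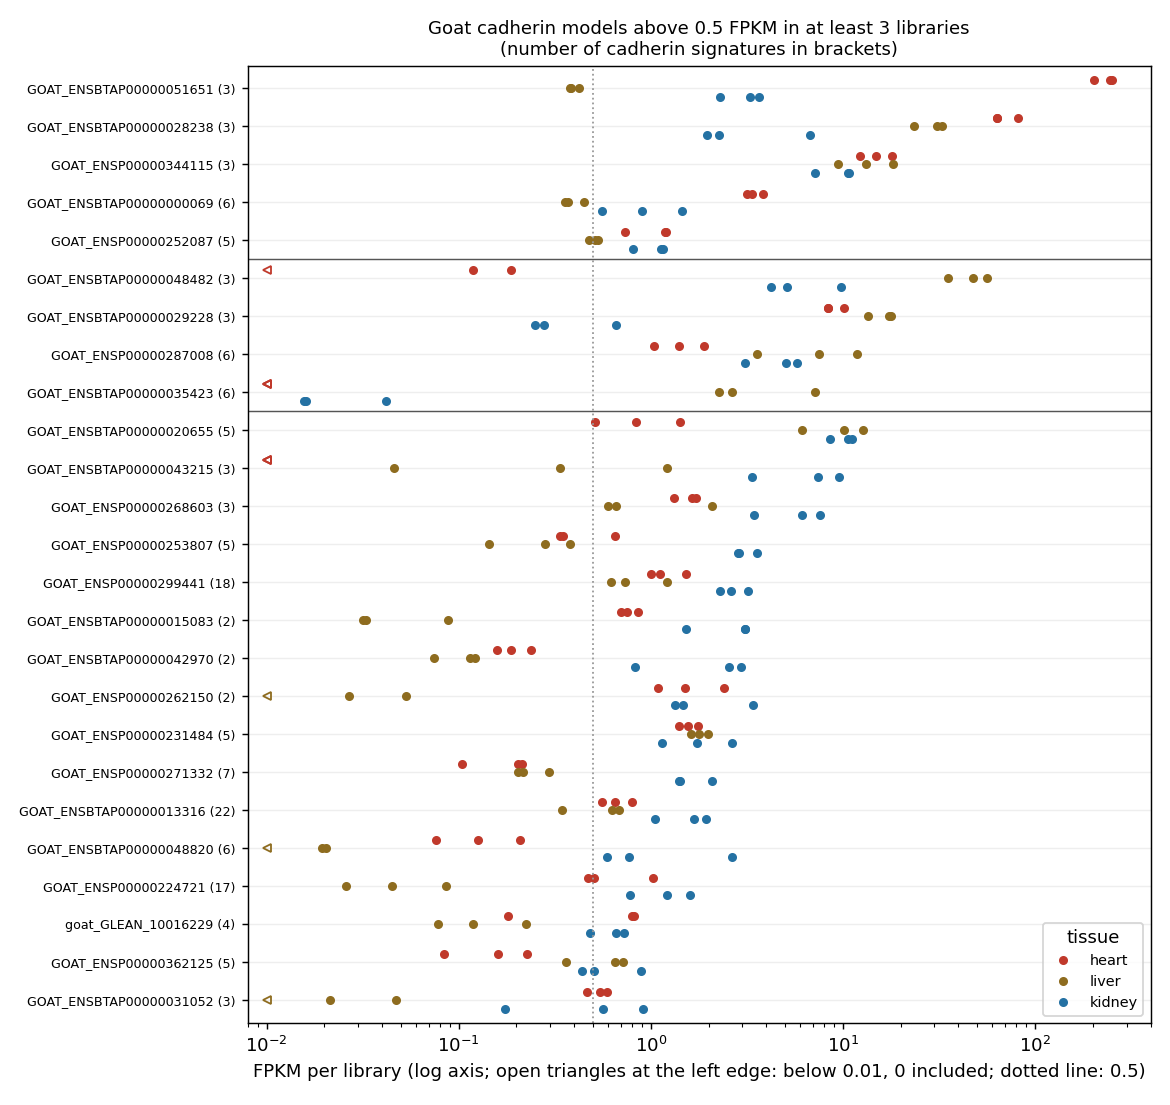
FPKM per library (x axis, log axis) of the 25 tested models (y axis, number of signatures in brackets), with red, brown and blue points for the 3 heart, 3 liver and 3 kidney libraries and open triangles for values below 0.01, 0 included. From top to bottom, lines part the models by the tissue of their highest mean, 5 for heart, 4 for liver and 16 for kidney.

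Heart was set apart by GOAT_ENSBTAP00000051651, a model of 3 signatures and 699 residues that spans positions 1309518 to 2116793 of scaffold 546 on the minus strand. Its level was 204, 251 and 246 FPKM in the 3 heart libraries, 0.381, 0.385 and 0.422 in liver, and 3.29, 3.66 and 2.30 in kidney. The tissues did not overlap, and the difference was 7.39 ± 0.19 (SE) between heart and liver (limma, adjusted p = 4.09e-09) and 5.85 ± 0.19 between heart and kidney (adjusted p = 3.00e-08). Kidney also exceeded liver, by a liver minus kidney difference of -1.53 ± 0.19 (adjusted p = 1.04e-04). These calls remained under every alternative in which the model was tested.

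The second model of heart, GOAT_ENSBTAP00000028238 (scaffold 421, positions 1670021 to 1735710, minus strand), has 3 signatures, 852 residues and the classical tripeptide. It reached 81.5, 63.6 and 63.7 FPKM in heart, 23.4, 33.0 and 30.9 in liver, and 6.73, 1.95 and 2.28 in kidney. The order of the tissues was thus heart, liver, kidney with no overlap, and kidney 1 lay apart from the other kidney libraries. The excess over kidney was 4.06 ± 0.35 for heart (adjusted p = 1.03e-05) and 2.82 ± 0.35 for liver (adjusted p = 1.05e-04). The excess of heart over liver, 1.23 ± 0.35 (adjusted p = 0.0150), was not called without heart 1 (1.12, adjusted p = 0.0542) or with libraries scaled to equal sums (0.78, adjusted p = 0.0846). It was also the protein closest to GOAT_ENSBTAP00000051651, with 43.6% of aligned residues shared over 94.8% of the length of the latter.

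Another model, of lower level, was higher in heart than in both other tissues. GOAT_ENSBTAP00000000069 (scaffold 544, positions 187302 to 190489, minus strand; 6 signatures, 939 residues) had 3.39, 3.17 and 3.83 FPKM in heart, 0.356, 0.369 and 0.448 in liver, and 1.46, 0.558 and 0.896 in kidney. Heart exceeded liver by 1.68 ± 0.19 (adjusted p = 5.91e-05) and kidney by 1.20 ± 0.19 (adjusted p = 4.27e-04). Its small liver minus kidney difference, -0.48 ± 0.19 (adjusted p = 0.0458), was lost without any one of 8 of the 9 libraries and fell to -0.31 without kidney 1 (adjusted p = 0.132), and it was also lost with median ratio scaling (-0.15, adjusted p = 0.539), with quantile normalization (-0.02, adjusted p = 0.934) and without a filter (adjusted p = 0.0607).

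Liver was led by GOAT_ENSBTAP00000048482, another model with the classical tripeptide, of 3 signatures and 883 residues (scaffold 1266, positions 1797536 to 1868204, minus strand). Its level was 35.2, 47.5 and 56.7 FPKM in liver and 9.76, 5.15 and 4.21 in kidney, and in heart it was listed at 0 in the first library and reached 0.118 and 0.188 in the others. The epithelial organs both carried it and heart lay near 0, with a heart minus liver difference of -5.41 ± 0.29 (adjusted p = 3.74e-07), a heart minus kidney difference of -2.67 ± 0.29 (adjusted p = 4.70e-05) and a liver minus kidney difference of 2.73 ± 0.29 (adjusted p = 4.26e-05). Its neighbour on the same scaffold, GOAT_ENSBTAP00000042970 (2 signatures, 781 residues), which shared 56.5% of aligned residues with it and also holds the tripeptide, did not follow it, with 2.55, 2.95 and 0.831 FPKM in kidney, 0.0747 to 0.122 in liver and 0.159 to 0.237 in heart. That neighbour was called higher in kidney than in heart (-1.31 ± 0.26 for heart minus kidney, adjusted p = 0.00181). It was also called higher in kidney than in liver (-1.42 ± 0.26 for liver minus kidney, adjusted p = 0.00112), although kidney 3 lay below the other kidney libraries. The neighbour passed the level through kidney alone, so it had to be high there to be tested.

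GOAT_ENSBTAP00000029228 (scaffold 1049, positions 395799 to 426138, plus strand; 3 signatures, 1105 residues) was shared by liver and heart and nearly missing from kidney. It had 17.7, 17.5 and 13.5 FPKM in liver, 10.1, 8.41 and 8.36 in heart, and 0.660, 0.279 and 0.249 in kidney. Liver exceeded kidney by 3.63 ± 0.19 (adjusted p = 5.81e-07), heart exceeded kidney by 2.84 ± 0.19 (adjusted p = 2.49e-06), and the heart minus liver difference was smaller at -0.79 ± 0.19 (adjusted p = 0.00796). The 3 tissues did not overlap.

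GOAT_ENSBTAP00000035423 (scaffold 386, positions 1050733 to 1081276, plus strand; 6 signatures, 1313 residues) was found nearly in liver alone. It was listed at 0 in all heart libraries, had 0.0157, 0.0420 and 0.0160 FPKM in kidney, and reached 7.19, 2.66 and 2.26 in liver. Liver 1 was far above the other liver libraries, yet all of them lay above every kidney library, with a liver minus kidney difference of 2.17 ± 0.30 (adjusted p = 2.16e-04). The call against heart had an adjusted p of 2.36e-04, and no fold is given against values listed at 0. This model passed the level through its liver libraries alone, so it had to be high there to be tested.

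Kidney exceeded both other tissues in 9 of the 25 tested models, a share close to that of all tested models (34.2%, or 4669 of 13634). Some of these models passed the level through kidney alone and had to be high there to be tested. The count was 7 with median ratio scaling, beside 2261 of all 13634 tested models. With quantile normalization it was 4, beside 2643. The largest excess of kidney belonged to GOAT_ENSBTAP00000043215 (scaffold 877, positions 85278 to 144445, minus strand; 3 signatures, 815 residues), with 9.52, 3.36 and 7.47 FPKM in kidney, 0.0459, 1.21 and 0.339 in liver and a listing at 0 in all heart libraries. Liver and kidney did not overlap (-2.32 ± 0.35 for liver minus kidney, adjusted p = 3.74e-04), and the call against heart had an adjusted p of 1.03e-04. The spread between replicates was wide in both organs.

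GOAT_ENSP00000268603 (scaffold 225, positions 2696325 to 2744846, plus strand; 3 signatures, 796 residues) had 6.16, 7.58 and 3.46 FPKM in kidney, 1.73, 1.33 and 1.65 in heart, and 0.60, 0.656 and 2.09 in liver. Every kidney library lay above all others, while heart and liver overlapped through liver 3. The difference was -1.34 ± 0.31 for heart minus kidney (adjusted p = 0.00428) and -1.69 ± 0.31 for liver minus kidney (adjusted p = 0.00121). The first of these was no longer called under quantile normalization (-0.67, adjusted p = 0.0826) or with the replicate block and median ratio scaling together (-0.81, adjusted p = 0.0610).

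GOAT_ENSP00000253807 (scaffold 1356, positions 2405292 to 2495978, minus strand; 5 signatures, 961 residues) was high in kidney in all 3 libraries, at 2.83, 2.89 and 3.58 FPKM in kidney against 0.349, 0.652 and 0.338 in heart and 0.281, 0.143 and 0.378 in liver. Its differences, -1.51 ± 0.16 for heart minus kidney (adjusted p = 4.04e-05) and -1.69 ± 0.16 for liver minus kidney (adjusted p = 2.03e-05), were called under all alternatives in which it was tested. GOAT_ENSBTAP00000015083 (scaffold 1019, positions 389727 to 397350, plus strand; 2 signatures, 638 residues) had 3.08, 3.08 and 1.52 FPKM in kidney, 0.697, 0.753 and 0.859 in heart, and 0.0319, 0.0885 and 0.0328 in liver. It followed the order kidney, heart, liver, with differences of -0.98 ± 0.20 for heart minus kidney (adjusted p = 0.00208), 0.75 ± 0.20 for heart minus liver (adjusted p = 0.0111) and -1.73 ± 0.20 for liver minus kidney (adjusted p = 6.97e-05). The heart minus kidney difference was not called with quantile normalization (-0.39, adjusted p = 0.0733).

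A further group of models was low in a single tissue. GOAT_ENSBTAP00000020655 (scaffold 207, positions 288628 to 301685, minus strand; 5 signatures, 1135 residues) was the highest model of kidney by its mean, with 8.55, 11.2 and 10.7 FPKM there, 6.12, 12.7 and 10.1 in liver, and 0.839, 1.42 and 0.514 in heart. Heart lay below liver (-2.45 ± 0.28, adjusted p = 6.86e-05) and kidney (-2.55 ± 0.28, adjusted p = 4.72e-05), while liver and kidney overlapped (-0.11, 95% confidence interval -0.73 to 0.52), and the sign of that last difference turned with median ratio scaling (0.71, adjusted p = 0.0386) and quantile normalization (0.62). GOAT_ENSP00000287008 (scaffold 1356, positions 1556420 to 1570323, plus strand; 6 signatures, 1166 residues) was also lowest in heart, with a wider spread, at 7.49, 3.56 and 11.8 FPKM in liver, 5.76, 3.11 and 5.09 in kidney, and 1.04, 1.41 and 1.91 in heart. Its heart minus liver difference was -1.71 ± 0.36 (adjusted p = 0.00358), and its heart minus kidney difference of -1.19 ± 0.36 (adjusted p = 0.0171) was lost with median ratio scaling (-0.69, adjusted p = 0.122), with quantile normalization (-0.53, 0.212), without a filter (0.0542), and without heart 1 (0.0617), kidney 1 (0.0540) or kidney 3 (0.0514). Liver and kidney overlapped in it on the deposited values (0.52, adjusted p = 0.236), but liver was called higher with median ratio scaling (1.26, adjusted p = 0.0153) and quantile normalization (1.23, adjusted p = 0.0145).

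In GOAT_ENSP00000262150 (scaffold 685, positions 467298 to 514835, minus strand; 2 signatures, 770 residues), liver was the low tissue. It had 2.41, 1.51 and 1.09 FPKM in heart, 3.42, 1.47 and 1.34 in kidney, and 0.0267, 0.0531 and 0 in liver. Heart exceeded liver by 1.35 ± 0.27 (adjusted p = 0.00240) and the liver minus kidney difference was -1.52 ± 0.27 (adjusted p = 9.24e-04). Heart and kidney overlapped, with a difference of -0.17 (95% confidence interval -0.78 to 0.43) whose sign turned under median ratio scaling, quantile normalization and without kidney 1.

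GOAT_ENSP00000344115 (scaffold 225, positions 1289547 to 1314847, minus strand; 3 signatures, 783 residues) was a model of high level in which no difference was called on the deposited values. It had 12.3, 18.1 and 14.8 FPKM in heart, 9.46, 13.2 and 18.2 in liver, and 7.16, 10.7 and 10.8 in kidney. Heart and liver overlapped (0.17, 95% confidence interval -0.44 to 0.77), as did liver and kidney (0.45, -0.16 to 1.06). Heart lay above kidney in every library, by 0.62 (0.01 to 1.22), which was not called (adjusted p = 0.0706) but was called in a fit with the replicate number as a block (adjusted p = 0.0150). Median ratio scaling and quantile normalization, but not scaling to equal sums, gave calls with kidney below both tissues, with a heart minus kidney difference of 1.24 (adjusted p = 3.34e-04) and a liver minus kidney difference of 1.27 (adjusted p = 3.45e-04) under median ratio scaling, and of 1.26 (3.64e-04) and 1.16 (7.05e-04) under quantile normalization. In the ranking by mean, this model took the third place in heart, the fourth in liver and the second in kidney, and in kidney its libraries overlapped with those of the models ranked next to it.

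Within a tissue, the order of the leading models was clear in heart and blurred in kidney. In heart, the first 5 models were GOAT_ENSBTAP00000051651 (mean 234 FPKM), GOAT_ENSBTAP00000028238 (69.6), GOAT_ENSP00000344115 (15.1), GOAT_ENSBTAP00000029228 (8.95) and GOAT_ENSBTAP00000000069 (3.46), and all libraries of each lay above all libraries of the next. In liver this held for GOAT_ENSBTAP00000048482 (46.4) over GOAT_ENSBTAP00000028238 (29.1) and for the latter over GOAT_ENSBTAP00000029228 (16.2), but the models from the third to the sixth place each overlapped with the next. In kidney, the first 8 models, from GOAT_ENSBTAP00000020655 (10.1) to GOAT_ENSP00000253807 (3.10), each overlapped with the model next in order.

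Between heart and liver, 14 of the 25 tested models were called at an adjusted p of 0.05, beside 49.2% of all 13634 tested goat models. Heart was higher in 8 (29.6% of all tested) and liver in 6 (19.6%). Differences of the called models had sizes from 0.43 to 7.39 on the log2 scale. The median heart minus liver difference was 0.17 over the 25 models and 0.10 over all tested models. Besides the models described so far, the calls were GOAT_ENSP00000224721, GOAT_ENSBTAP00000031052 and GOAT_ENSP00000252087 in heart and GOAT_ENSP00000362125 in liver, with differences of 0.65, 0.58, 0.43 and -0.44. Each of these 4 calls was lost when some library was left out, and those of GOAT_ENSP00000252087 (adjusted p = 0.0417) and GOAT_ENSP00000362125 (0.0447) were also lost with the replicate block (0.0563 and 0.0556).

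Between heart and kidney, 17 of 25 models were called (63.2% of all tested). Heart was higher in 4 (17.9% of all tested) and kidney in 13 (45.3%). The 4 heart models, GOAT_ENSBTAP00000051651, GOAT_ENSBTAP00000028238, GOAT_ENSBTAP00000029228 and GOAT_ENSBTAP00000000069, were called under every alternative that tested them, and 6 of the 13 kidney models were. The median difference was -0.47 over the 25 models and -0.55 over all tested models, so that the deposited values as a whole were shifted towards kidney. Median ratio scaling, which centres the libraries, moved the median of all tested models to -0.04 and the split of the called members to 5 in heart and 9 in kidney, and quantile normalization gave 7 and 6. Over all tested models the split went from 2440 and 6181 to 3952 and 3961 with median ratio scaling. With quantile normalization it was 3816 and 4092.

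Between liver and kidney, 20 of 25 models were called (65.0% of all tested), 4 higher in liver (13.4%) and 16 higher in kidney (51.6%). The 4 liver models, GOAT_ENSBTAP00000048482, GOAT_ENSBTAP00000029228, GOAT_ENSBTAP00000028238 and GOAT_ENSBTAP00000035423, and 10 of the 16 kidney models were called under every alternative that tested them. The median difference was -0.57 over the 25 models and -0.69 over all tested models, and it was -0.01 over all with median ratio scaling. Under that scaling the members' split was 7 in liver and 10 in kidney, as it was with quantile normalization. That of all tested models was 3632 and 3455 with median ratio scaling and 3055 and 4198 with quantile normalization. The call of goat_GLEAN_10016229 (-0.51, adjusted p = 0.0367) was lost with the replicate block (adjusted p = 0.0534) and kept in 7 of 16 alternatives. In all 3 comparisons, which share their libraries, every called member had tissues that did not overlap, as did 98.6%, 98.3% and 96.1% of all called models.

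**Figure D4:**
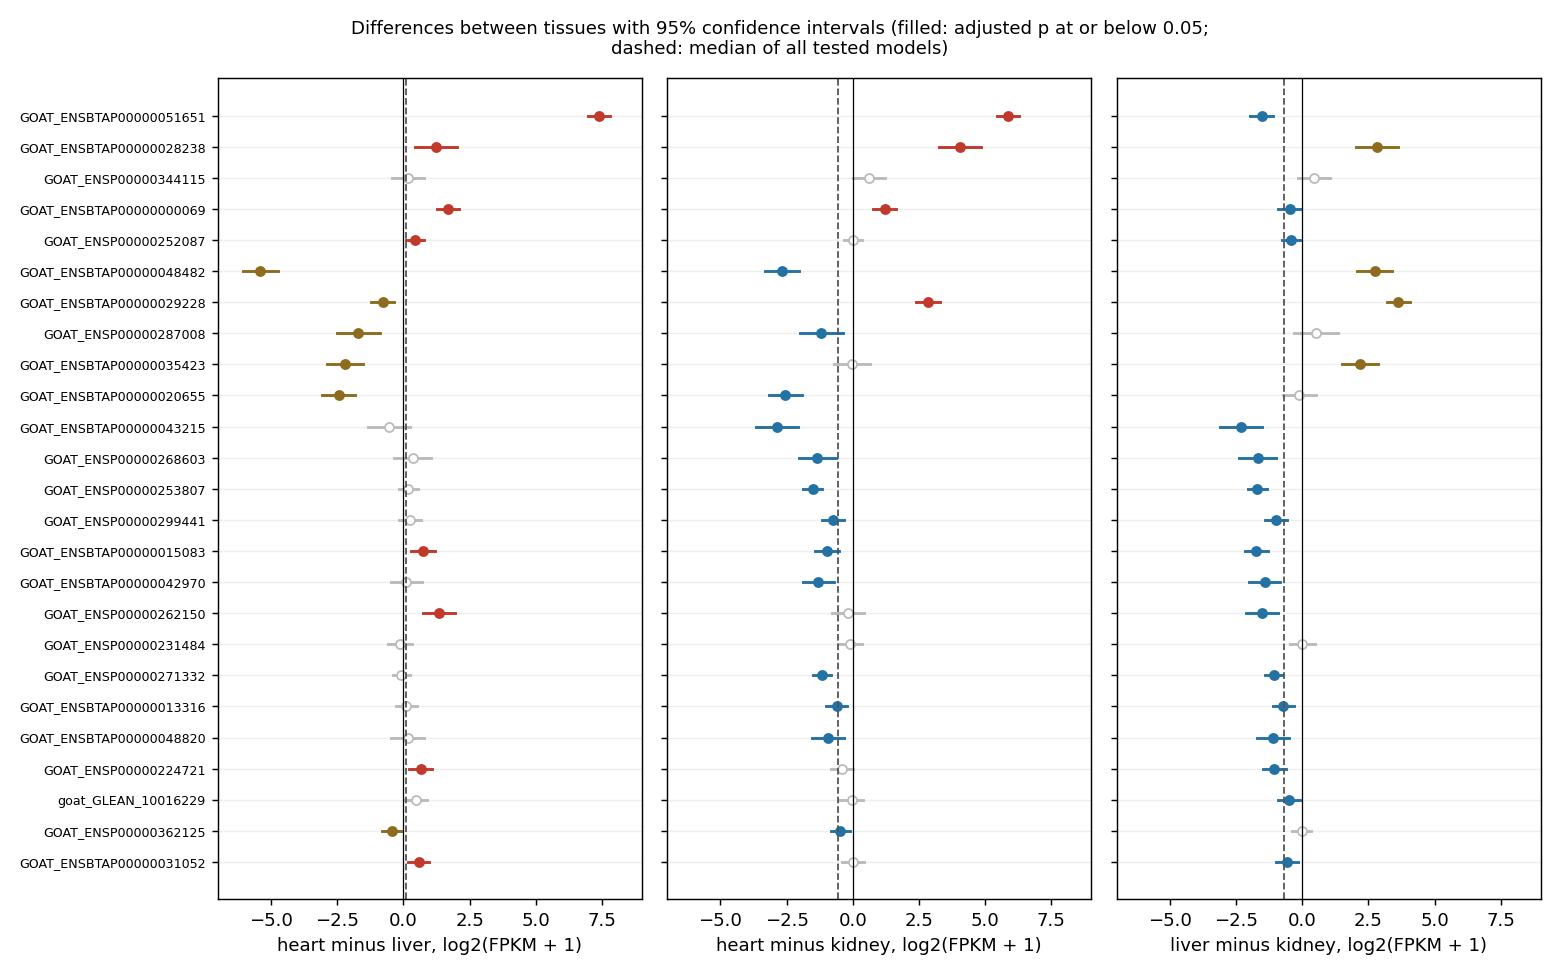
Differences on the log2(FPKM + 1) scale (x axis) for the 25 tested models (y axis) in the 3 comparisons, with bars for 95% confidence intervals, filled points at an adjusted p of 0.05 or below, coloured by the higher tissue, and a dashed line at the median of all tested models. Kidney-high points outnumber heart-high or liver-high points, 13 to 4 and 16 to 4, and the dashed line is also displaced towards kidney.

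Models above both other tissues numbered 3 in heart (14.5% of all tested), 3 in liver (9.59%) and 9 in kidney (34.2%). Of these, GOAT_ENSBTAP00000042970, GOAT_ENSBTAP00000048820 and GOAT_ENSP00000271332 exceeded 0.5 FPKM in kidney alone, and GOAT_ENSBTAP00000035423 in liver alone. They had to be high in that tissue to be tested, so their calls there lend no separate support. The 9 kidney models were GOAT_ENSBTAP00000043215, GOAT_ENSP00000268603, GOAT_ENSP00000253807, GOAT_ENSBTAP00000015083, GOAT_ENSBTAP00000042970, GOAT_ENSBTAP00000048820 and the giant models GOAT_ENSP00000271332, GOAT_ENSBTAP00000013316 and GOAT_ENSP00000299441. GOAT_ENSBTAP00000048820 (6 signatures) owed part of its excess to kidney 2, with 0.595, 2.64 and 0.771 FPKM in kidney, and without that library the heart minus kidney difference went from -0.94 to -0.57 and the liver minus kidney difference from -1.10 to -0.73, both still called. Quantile normalization ended the first of these calls (-0.52, adjusted p = 0.0848). With median ratio scaling 7 of the models above both other tissues in kidney were counted, and with quantile normalization 4. Over all 13634 tested models the counts were 2261 and 2643.

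Of the 9 giant models, 8 had their highest mean in kidney and 1 in heart, while kidney held the highest mean in 55.9% of all goat models not listed at 0 throughout, and 4 of the 9 were tested. Some of these placements rest on values near 0. The maximum was 0.0231 FPKM in GOAT_ENSP00000261800, 0.0311 in GOAT_ENSBTAP00000051403 and 0.00805 in GOAT_ENSP00000349768, the model placed in heart. GOAT_ENSP00000271332 (7 signatures, 2862 residues) had 2.09, 1.42 and 1.40 FPKM in kidney, 0.104, 0.214 and 0.204 in heart and 0.295, 0.215 and 0.203 in liver. Its differences were called under every alternative that tested it. They were -1.16 ± 0.15 for heart minus kidney (adjusted p = 1.27e-04) and -1.08 ± 0.15 for liver minus kidney (adjusted p = 1.93e-04). This model passed the level through kidney alone, so it had to be high there to be tested. GOAT_ENSP00000299441 (18 signatures) had 2.61, 3.20 and 2.28 FPKM in kidney, 1.12, 1.53 and 1.00 in heart and 0.738, 1.22 and 0.621 in liver, and GOAT_ENSBTAP00000013316 (22 signatures) had 1.94, 1.69 and 1.06 in kidney, 0.555 to 0.799 in heart and 0.346 to 0.686 in liver. Both lay above the other tissues in every kidney library, but their differences from heart and liver were not called with median ratio scaling or quantile normalization. With median ratio scaling, GOAT_ENSP00000299441 had a heart minus kidney difference of -0.29 (adjusted p = 0.247) and a liver minus kidney difference of -0.45 (0.0882), GOAT_ENSBTAP00000013316 had -0.25 (0.318) and -0.26 (0.304), and with quantile normalization the adjusted p of all 4 differences lay between 0.181 and 0.735.

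The last of the 4 tested giant models, GOAT_ENSP00000224721 (17 signatures, 3350 residues), was near absent from liver. It had 1.6, 0.785 and 1.22 FPKM in kidney, 1.03, 0.509 and 0.470 in heart and 0.0450, 0.0260 and 0.0864 in liver. Heart and kidney overlapped, with a difference of -0.40 (95% confidence interval -0.82 to 0.02) that was called with libraries scaled to equal sums (-0.56, adjusted p = 0.0201), without heart 1 (-0.55, adjusted p = 0.0311) and without kidney 2 (-0.54, adjusted p = 0.0365), and the liver minus kidney difference was -1.05 ± 0.19 (adjusted p = 9.85e-04). The other 5 giant models stayed below 0.5 FPKM in every library, the highest of them at 0.284 FPKM in kidney 2 (GOAT_ENSP00000164024, whose protein shared 52.6% of aligned residues with GOAT_ENSP00000271332).

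Members that lay on the same scaffold did not share 1 pattern. A total of 25 models lay on 7 scaffolds with at least 2 members each, out of 37 scaffolds in all. Not all of these were near each other, since the members on scaffold 40 spanned 5035 kb. The largest group was 9 models within 1116 kb of scaffold 1356, all but 2 of them on the minus strand, and 4 of them had no room for introns in their span.

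Along scaffold 1356, the models did not follow a single order of the tissues, although some neighbours shared one. The first, GOAT_ENSP00000231484 (5 signatures), had 1.40 to 1.77 FPKM in heart, 1.62 to 1.99 in liver and 1.15 to 2.64 in kidney. None of its differences was called on the deposited values, but liver was called above kidney with quantile normalization (0.67, adjusted p = 0.0198) and with the replicate block and median ratio scaling together (0.57, adjusted p = 0.0189). The second, GOAT_ENSP00000287008, was low in heart, and the seventh, GOAT_ENSP00000253807, was high in kidney, as described before. GOAT_ENSP00000252087 was lowest in liver (0.475 to 0.531 FPKM, against 0.738 to 1.20 in heart and 0.806 to 1.15 in kidney), and so, by its mean, was goat_GLEAN_10016229 (0.0777 to 0.225 FPKM, against 0.181 to 0.817 and 0.486 to 0.723). The next model, goat_GLEAN_10016233, was not tested and was also lowest in liver (0 to 0.139 FPKM). It had 0.425 to 0.813 FPKM in heart and 0.242 to 0.703 in kidney. These adjacent models thus shared a low level in liver. GOAT_ENSP00000307234 and GOAT_ENSP00000367372 were listed at 0 in all 9 libraries, and the giant model GOAT_ENSBTAP00000051403 between them reached 0.0311 FPKM.

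Scaffold 1049 held 5 models within 399 kb, of which 3 had their highest mean in liver, 1 in heart and 1 in kidney. GOAT_ENSBTAP00000029228, described above, was the one that was tested. GOAT_ENSBTAP00000018382 was highest in kidney (0.437, 0.435 and 0.269 FPKM) and GOAT_ENSBTAP00000045458 was found only in heart (0.102, 0.0917 and 0.147 FPKM, listed at 0 elsewhere). GOAT_ENSBTAP00000002538 reached 6.09 FPKM in liver 1 but 0.676 and 0.457 in the other liver libraries, and GOAT_ENSBTAP00000026482 had 1.19 FPKM in liver 1 against 0.125 and 0.0672. In both of these models a single liver library set the level.

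**Figure D5:**
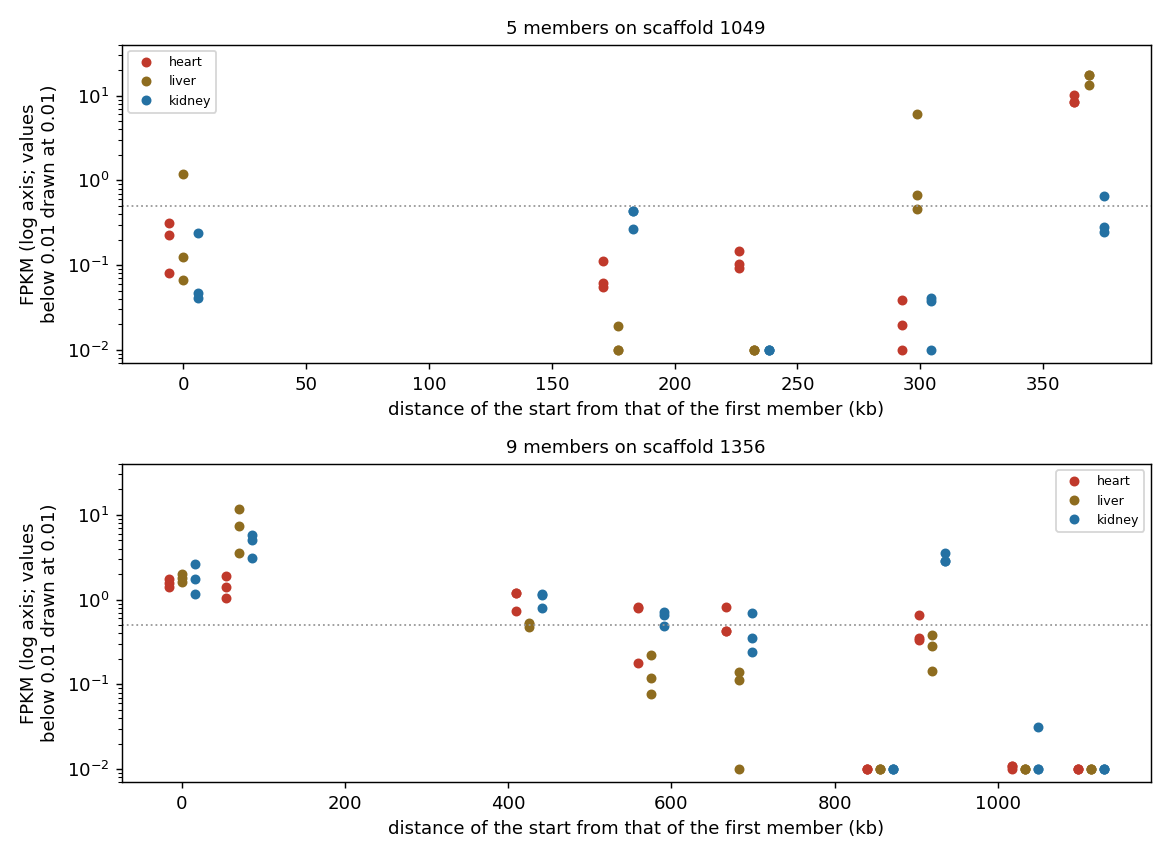
FPKM per library (y axis, log axis, values below 0.01 drawn at 0.01) against the distance of each model's start from that of the first member (x axis, kb) on scaffold 1049 (upper panel, 5 models) and scaffold 1356 (lower panel, 9 models), with the tissues coloured and set slightly apart. On each scaffold the tissue of the highest level changes between models, and the dotted line marks 0.5 FPKM.

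The remaining 30 models did not exceed 0.5 FPKM in 3 libraries and were not tested. Of these, 4 were listed at 0 throughout, 21 had a maximum of at most 0.5 FPKM, and 5 exceeded 0.5 FPKM in 1 or 2 libraries. The mean was highest in kidney for 17, in heart for 5 and in liver for 4. Of all models that failed the same level and were not at 0 throughout, 53.2% had their highest mean in kidney, 24.8% in heart and 22.0% in liver. Kidney libraries lay above all others, without overlap, in 6 of the 30. The same held for 454 of the 8497 models that failed the level (5.34%), of which only 3651 were not at 0 throughout. A model at 0 throughout cannot lie above others, and only 4 of the 30 were such models, so these shares have unlike bases. Among the 6 was GOAT_ENSP00000353656, which carries the classical tripeptide. It had 0.455, 0.443 and 0.464 FPKM in kidney and a listing at 0 in every heart and liver library. goat_GLEAN_10014002 (scaffold 225; 2 signatures, 777 residues) was found in heart alone, with 1.42, 0.486 and 0.873 FPKM, and was listed at 0 in all liver and kidney libraries, and only 2 of its libraries exceeded the level.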

How the data were processed

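Expression of 9 goat libraries (strand-specific dUTP preparation per the labels) was analysed. According to the study's methods, reads were mapped with TopHat to the goat genome CHIR_1.0 and quantified with Cufflinks. The submitters' processing notes give Cufflinks 2.2.1 and name only the cattle build UMD3.1. The authors deposited log2(FPKM + 1) values per gene model, and FPKM was recovered from them. The goat heart columns carry other names than the sample descriptions and were matched by prefix, tissue and number. The paper states that the goat heart samples were also deposited under other sample entries, and says this of no goat liver or kidney sample. Whether heart was prepared or sequenced apart is not stated, and such a difference could not be told apart from tissue. FPKM is relative, so abundant transcripts lower all others, and a value of 0 can be a failed estimate. Positions, protein lengths and signatures came from the deposited goat protein sequences, whose headers state no build.

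Tissue differences were fitted with limma 3.58.1 (R 4.3.3) with tissue means and a variance that follows the mean level. P-values were adjusted by Benjamini and Hochberg for each comparison over the 13634 models above 0.5 FPKM in at least 3 libraries, with calls at an adjusted p of 0.05 or below. The fit was also run on simulated data in which a small part of the models, none of low mean level, was changed in heart. Noise there was independent between libraries. That setting cannot show how the fit performs on low models or on shifted and paired libraries. Proteins were compared with blastp 2.17.0, and figures were drawn in Python 3.11.15. Intron room was taken as absent where the span was at most 1.1 times the coding length. Alternatives were another pseudocount (0.1), other filters and scalings, a minimum difference, the replicate number as a block, and each library left out. Deviations from tissue means correlated at 0.146 to 0.472 between same-numbered libraries of different tissues and at -0.417 to 0.134 between others. The numbers thus appeared to pair the libraries, although the labels do not say that a number marks an animal. By the study's methods the tissues came from the same animals. The main fit did not use this pairing and treated all libraries as independent. All differences, SE, adjusted p and calls are therefore unpaired unless the replicate block is named.

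Members described with their values in every library were those of the 6 highest means in a tissue or of the 4 largest called differences in each direction of a comparison, and other models were chosen after their values were seen. The planned naming of models, the families, the catenin partners and the tissue markers were not analysed here, because the reference table matched 0 goat identifiers. The members and lists were chosen with earlier results of these data known. Cattle and sheep tables were not used here.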

Additional observations from a re-analysis of the deposited data

How the results depend on the processing

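With the study's own filter (above 0.5 FPKM in over 80% of libraries), which 9 of the 55 models passed, called models numbered 4 between heart and liver (2 and 2), 6 between heart and kidney (1 and 5) and 5 between liver and kidney (1 and 4), and models above both other tissues numbered 1 in heart, 0 in liver and 3 in kidney, since fewer models were tested. Of all 10180 models that passed that filter, 4860, 6447 and 6468 were called in the 3 comparisons. Above both others were 1298 of them in heart, 626 in liver and 3505 in kidney. Without a filter, 5 were above both others in heart and 15 in kidney, since all 55 were tested. Of all 22131 models, 1957 and 4567 were. A minimum log2 difference of 1 left 8 called between heart and liver, 4 of them higher in heart. It left 8 higher in kidney than in heart, 10 higher in kidney than in liver, and 5 above both others in kidney. Of all 13634 tested models, 4817 were called between heart and liver, 2810 of them higher in heart. Kidney was higher in 4482 than in heart, in 4882 than in liver, and above both others in 3016.

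Quantile normalization gave 7 higher in heart and 6 in kidney, and 7 higher in liver and 10 in kidney. It gave 5 above both others in heart and 4 in kidney. Over all 13634 tested models, these splits were 3816 and 4092, and 3055 and 4198. Above both others were 2689 in heart and 2643 in kidney. Median ratio scaling gave 7 higher in liver than in kidney and 10 the other way, with 5 above both others in liver. Together with the replicate block, an alternative chosen after seeing the data, it gave 8 higher in liver and again 5. Over all 13634 tested models, median ratio scaling gave 3632 higher in liver, 3455 in kidney and 2105 above both others in liver. With the block as well, 3971 were higher in liver and 2329 above both others there. The cause was not tested. The replicate block alone gave 12, 18 and 19 called models in the 3 comparisons. Beyond the 4 calls named in the report, it changed no other call. Of all 13634 tested models, it called 7708, 9449 and 9671.

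Leaving out 1 library at a time gave 11 to 14 called between heart and liver (6 to 8 in heart, 5 to 6 in liver), 16 to 18 between heart and kidney (4 to 5 in heart, 12 to 13 in kidney) and 17 to 19 between liver and kidney (4 to 5 in liver, 13 to 15 in kidney), with 2 to 3, 3 to 4 and 9 to 10 above both others in heart, liver and kidney. Over all 13634 tested models, 5759 to 6937, 7632 to 9009 and 7816 to 9040 were called in these comparisons. Above both others were 1760 to 1986 in heart, 1230 to 1334 in liver and 3941 to 4873 in kidney. The member count of heart fell to 2 without heart 1, through GOAT_ENSBTAP00000028238. GOAT_ENSP00000287008 was called higher in liver than in kidney without liver 2 (0.91, adjusted p = 0.0297).

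Among the named models, 3 differences that were not called turned sign. Liver minus kidney of GOAT_ENSBTAP00000020655 went from -0.11 to 0.71 (median ratio scaling, with or without the replicate block), 0.62 (quantile normalization) and, over the left-out libraries, -0.31 to 0.16. Heart minus kidney of GOAT_ENSP00000262150 went from -0.17 to 0.25 (median ratio scaling, with or without the block), 0.42 with quantile normalization and, over the left-out libraries, -0.36 to 0.12. Heart minus liver of GOAT_ENSP00000344115 went from 0.17 to -0.033 (median ratio scaling, with or without the block), -0.27 (equal sums) and, over the left-out libraries, -0.053 to 0.39. No called difference of a named model turned sign. Depth was unknown, and with 3 libraries per tissue small differences of low models were not detectable.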

Other observations

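A further 14 models with at least 2 cadherin signatures carry a copy suffix and were left out by the rule. Of these, 3 exceeded 0.5 FPKM in at least 3 libraries, and the others reached at most 0.781 FPKM. GOAT_ENSP00000353608-D2 (3 signatures, 887 residues) had 13, 8.32 and 8.88 FPKM in heart, 6.16, 1.5 and 2.56 in liver, and 3.34, 2.69 and 1.94 in kidney, whereas the model of the same name without a suffix was listed at 0 in heart and liver and reached 0.160 FPKM in kidney. GOAT_ENSP00000367345-D21 (5 signatures) lay at 3.82 to 6.31 FPKM in heart, 3.32 to 6.22 in liver and 6.10 to 7.87 in kidney. GOAT_ENSP00000312070-D38 (5 signatures) had 1.35, 1.07 and 0.456 FPKM in kidney, 0.281, 0.815 and 0.448 in heart and at most 0.165 in liver.

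Liver 1 held the highest of the 3 liver values in GOAT_ENSBTAP00000035423, GOAT_ENSBTAP00000002538, GOAT_ENSBTAP00000026482 and GOAT_ENSP00000353608-D2, by a wide gap in each, but in 6 of the 25 tested models overall. Kidney 1 held the highest of the 3 kidney values in 15 of the 25 tested models, kidney 2 in 8 and kidney 3 in 2. These counts were made after the values were seen, and their part in the differences between tissues was not tested beyond leaving each library out.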
